A study of Homo sapiens with 15 samples.

Results

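The genes described here were 9 members of the JAK-STAT pathway: the transcription factors STAT2, STAT3, STAT4, STAT5A, STAT5B and STAT6 and the kinases JAK1, JAK2 and TYK2. The rule was membership of these gene families by name, with no measured value in it, and the genes were matched by gene symbol among the 60649 genes of the deposited count table. All 9 passed the filter on low counts that left 23711 genes for testing. The cells were K562, an established human line from a chronic myeloid leukaemia in blast crisis with the fusion kinase BCR-ABL, and the inhibitor was martinostat, which blocks histone deacetylases (HDACs). Poly(A) RNA was sequenced from untreated cells and after 24 h with martinostat at 1 of 4 concentrations (0.15, 0.25, 0.5 or 1 µM), with 3 libraries in each of the 5 groups and 15 in all. All groups were the same parental line, with no added transgene or deletion named, and every value belongs to this 1 line. The labels number the libraries of a group as biological replicates but do not say which cultures they came from, and a p-value therefore measures the spread between these libraries. In bulk RNA, fewer cells that express a gene and less RNA of that gene per cell cannot be told apart.

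Janus kinases (JAKs) sit on the inner ends of cytokine receptors and phosphorylate tyrosines when a ligand brings receptor chains together. STAT proteins bind these phosphotyrosines, are phosphorylated in turn, pair up and move to the nucleus, where they bind DNA and act on transcription. In chronic myeloid leukaemia BCR-ABL keeps STAT5 phosphorylated without a cytokine, and STAT5 is the STAT best known for the survival and growth of these cells. The name STAT5 covers the products of a pair of neighbouring, closely related genes, STAT5A and STAT5B.

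Levels are given as CPM, the counts of a gene relative to a library size that was rescaled with TMM factors (trimmed means of log ratios), and as CPM per kb of exon where genes are compared with each other. Library sizes ran from 23755510 to 32805574 counts. On the third principal component, replicate 3 of the 0.25 µM group scored 70.1 and replicate 3 of the 0.5 µM group 75.4, against 16 or less in the other 13 libraries. Results at these doses are given with and without the third replicate where it moved them. Of the erythroid markers of K562, untreated cells held HBZ at 1050 ± 57.7 CPM and GATA1 at 328 ± 5.92 CPM, while HBE1, with 90% of its exon bases under another gene of the same strand, stood at 0.170 ± 0.0950 CPM (SD, n = 3). Of 10 markers of other lineages, the B cell gene MS4A1 had 0 counts in untreated cells, but EPCAM stood at 141 ± 9.54 and ALB at 15.8 CPM. Many genes changed in these cells: 31.9% of all tested genes were called higher and 19.4% lower at 0.15 µM, and 38.8% and 27.5% at 1 µM. Against untreated, the median of the signed log2 fold changes of all genes tested was 0.28, 0.32, 0.34 and 0.32 with increasing dose. Scaling by library totals raised these medians to 0.641, 0.845, 0.723 and 0.669, and TMM factors restricted to genes with 10 CPM or more gave 0.540, 0.735, 0.753 and 0.697. The share of higher calls among all calls rose with it, from 62.2%, 60.1%, 58.8% and 58.5% to 81.9%, 79.2%, 70.2% and 69.3% under library totals. Small changes on the log2 scale are therefore read against the median of all genes.

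Untreated K562 cells expressed STAT5A above every other member. Per kb of exon, its level was 79.9 ± 5.72 CPM, followed by STAT5B at 22.6 ± 2.21, TYK2 at 16.6 ± 0.211, STAT3 at 15.1 ± 1.01, STAT6 at 13.4 ± 0.175 and JAK1 at 9.81 ± 1.10 CPM (SD, n = 3). JAK2 at 4.02 ± 0.602 and STAT2 at 3.45 ± 0.454 CPM per kb overlapped, while the libraries of all other neighbours in this order did not. STAT4 had 0 counts in the 3 untreated libraries. At 1 µM the order was TYK2 at 27.6 ± 2.82, STAT3 at 26.0 ± 1.77, STAT2 at 13.1 ± 0.543 and JAK1 at 10.7 ± 1.63 CPM per kb, with STAT5B at 3.43 ± 0.242, STAT6 at 2.08 ± 0.0685 and STAT5A at 1.51 ± 0.189. STAT5A thus went from the first to the seventh of the 9 places. At 1 µM TYK2 and STAT3 were the only neighbours in the order whose libraries overlapped.

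**Figure D1:**
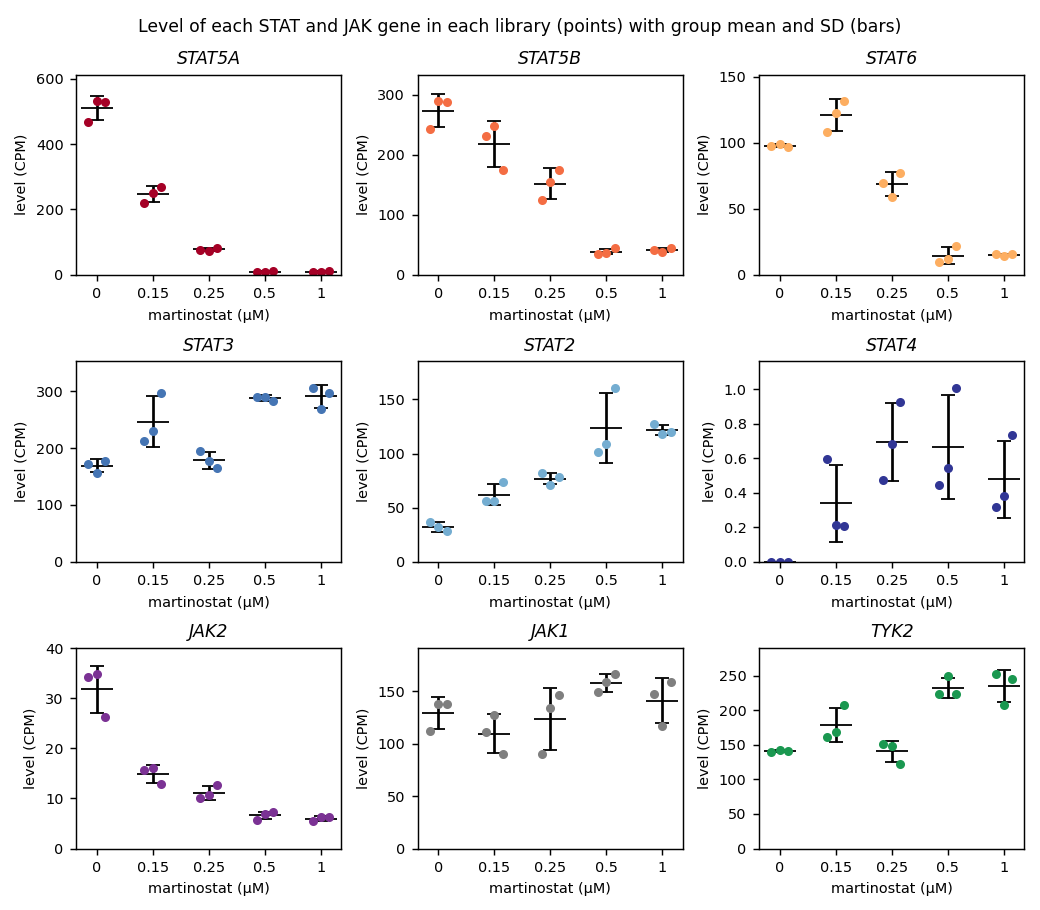
Level in CPM (vertical axes, linear from 0) of each of the 9 genes at each martinostat dose in µM (horizontal axes). Points are the 3 libraries of a group, and bars give the mean and SD. STAT5A, STAT5B, STAT6 and JAK2 ended low, STAT2, STAT3 and TYK2 ended high, and STAT4 had 0 counts in untreated cells and stayed at about 1 CPM or below.

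STAT5A (ENSG00000126561.18, GRCh38 chromosome 17, 42287547 to 42311943, plus strand) is the STAT5 gene with the higher level in untreated cells. The untreated libraries held 468, 533 and 529 CPM. The lowest dose left 220, 250 and 270 CPM, and 0.25 µM left 76.4, 74.2 and 83.1 CPM. In the 0.5 µM libraries 7.95, 9.75 and 11.2 CPM remained, and in the 1 µM libraries 9.94, 8.29 and 10.6 CPM. No library of a dose overlapped with an untreated one, and each dose up to 0.5 µM lay below the dose before it. Against untreated cells, 0.15 µM gave a log2 fold change of -1.05 with an SE of 0.15 (adjusted p = 9.34e-06), and 0.25 µM gave -2.71 with an SE of 0.16. The value reached -5.72 at 0.5 µM with an SE of 0.18 (adjusted p = 1.62e-14), and -5.73 at 1 µM, a level 53.0-fold below that of untreated cells. Of the 23711 genes tested, 1430 had a lower log2 fold change than STAT5A at 0.15 µM and 29 had a lower one at 1 µM.

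STAT5B (ENSG00000173757.10, chromosome 17, 42199176 to 42288633, minus strand) encodes the other STAT5 protein. Its libraries held 242, 290 and 288 CPM without martinostat, 231, 247 and 174 CPM at 0.15 µM, and 124, 155 and 175 CPM at 0.25 µM. At 0.5 µM they held 34.9, 37.1 and 44.4 CPM and at 1 µM 42.1, 38.3 and 44.1 CPM. The 0.15 µM libraries overlapped with the untreated ones, and those of the higher doses did not. The change was not called at 0.15 µM (log2 fold change -0.33, SE 0.16, adjusted p = 0.0975). STAT5B fell at 0.25 µM (-0.85, SE 0.16, adjusted p = 0.000163), at 0.5 µM (-2.82, SE 0.17) and at 1 µM (-2.72, SE 0.17, adjusted p = 1.03e-10). The call at 0.25 µM was lost on library totals, where the log2 fold change was -0.31 (adjusted p = 0.181).

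The balance between the STAT5 genes shifted, and it does not depend on how libraries are scaled against each other. Of the counts of STAT5A plus STAT5B, STAT5A took 65.9%, 64.8% and 64.8% in the untreated libraries. The 0.15 µM libraries gave 48.8%, 50.3% and 60.8%, and the 0.25 µM libraries 38.1%, 32.4% and 32.2%. At 0.5 µM the share was 18.6%, 20.8% and 20.2%, and at 1 µM it was 19.1%, 17.8% and 19.4%. No treated library overlapped with the untreated ones. The difference in means from untreated was -11.9, -30.9, -45.3 and -46.4 percentage points with increasing dose. Each of these 4 comparisons gave p = 0.1 in a two-sided exact permutation test of 3 against 3 libraries, also after adjustment over the 4, which is the smallest value this design allows. Per exon length the share of STAT5A went from 78.0 ± 0.475% to 30.5 ± 1.22% at 1 µM (SD, n = 3). Part of the exon bases lie under a gene on the opposite strand, 6.50% for STAT5A and 3.43% for STAT5B, and whether counting used the strand is not given in the sources used here.

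STAT6 (ENSG00000166888.12, chromosome 12, 57095408 to 57132139, minus strand), the STAT of interleukin-4 and interleukin-13 signalling, lost most of its level at 0.5 and 1 µM. The untreated libraries held 97.3, 99.2 and 96.8 CPM and the 0.15 µM libraries 108, 123 and 132 CPM. At 0.25 µM the libraries held 69.8, 58.9 and 77.4 CPM, at 0.5 µM 9.50, 12.0 and 22.1 CPM, and at 1 µM 15.4, 14.6 and 15.6 CPM. The libraries at 0.15 µM lay above all untreated ones and those at the other doses below them. The difference at 0.15 µM was not called (log2 fold change 0.31, SE 0.21, adjusted p = 0.231), and it was close to the median of all genes. It was called higher in 3 of 26 alternatives, on log2(FPKM + 1) (0.48), in the fit of only the libraries compared (0.34, adjusted p = 0.0155) and without the third replicates at 0.25 and 0.5 µM (0.31). At 0.5 µM STAT6 fell by 2.74 on the log2 scale (SE 0.23, adjusted p = 3.93e-09) and at 1 µM by 2.68 (SE 0.22). At 0.5 µM the third replicate was the highest library, and without it the log2 fold change was -3.18 (SE 0.17). The call at 0.25 µM was weak (-0.51, SE 0.21, adjusted p = 0.0425). It was lost when any of 8 of the 15 libraries was left out, with log2 fold changes from -0.52 to -0.41, namely each untreated library, replicate 3 at 0.15 µM, replicates 1 and 2 at 0.25 µM and replicates 1 and 3 at 1 µM. On library totals the sign turned (0.03).

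STAT3 (ENSG00000168610.16, chromosome 17, 42313324 to 42388540, minus strand), the STAT of the interleukin-6 family, rose at 3 of the 4 doses. Its untreated libraries held 173, 157 and 178 CPM and those at 0.15 µM 212, 230 and 298 CPM. At 0.25 µM the libraries held 195, 177 and 165 CPM, 1 library above the untreated range and the others inside it. At 0.5 µM they held 291, 291 and 283 CPM and at 1 µM 307, 269 and 298 CPM, all above the untreated ones. STAT3 rose by a log2 fold change of 0.54 at the lowest dose (SE 0.14, adjusted p = 0.00377), by 0.77 at 0.5 µM and by 0.78 at 1 µM (SE 0.14, adjusted p = 9.13e-05), beside the all-gene medians given above. The value at 0.25 µM, 0.08 (SE 0.14, adjusted p = 0.638), was not called, but it was 0.60 and called on library totals, where the median of all genes was 0.845.

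STAT2 (ENSG00000170581.14, chromosome 12, 56341597 to 56360203, minus strand), which joins the complex that type I interferons activate, rose at every dose. The untreated libraries held 36.4, 31.9 and 27.9 CPM. At 0.15 µM they held 56.2, 56.5 and 73.4 CPM, at 0.25 µM 81.6, 70.9 and 78.0 CPM, at 0.5 µM 101, 109 and 161 CPM and at 1 µM 127, 118 and 120 CPM. All treated libraries lay above the untreated ones. With increasing dose the log2 fold change was 0.95 (SE 0.17 and adjusted p = 0.000139), 1.26 (SE 0.17), 1.95 (SE 0.18) and 1.92 (SE 0.18, adjusted p = 1.45e-08). The third replicate at 0.5 µM was the highest library, and without it the value at that dose was 1.71 (SE 0.15).

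STAT4 (ENSG00000138378.19, chromosome 2, 191029576 to 191151596, minus strand), the STAT of interleukin-12 signalling in lymphocytes, had 0 counts in all untreated libraries and a few counts in every treated one. The libraries had 17, 6 and 6 counts at 0.15 µM and 14, 19 and 37 at 0.25 µM. They had 10, 13 and 37 counts at 0.5 µM and 9, 11 and 21 at 1 µM. Set against a floor of 3 counts over the untreated group, the pooled level was at least 8.55-fold higher at 0.15 µM, at least 18.2-fold at 0.25 and at 0.5 µM and at least 12.1-fold at 1 µM. STAT4 passed the filter on low counts only through the treated groups, so its calls against untreated are no support for a difference and their p-values are not given. Its level stayed at 1.01 CPM or below in every library.

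JAK2 (ENSG00000096968.14, chromosome 9, 4984390 to 5129948, plus strand), the kinase of the erythropoietin and thrombopoietin receptors, fell at every dose. The untreated libraries held 34.3, 34.8 and 26.3 CPM. They held 15.7, 16 and 12.8 CPM at 0.15 µM, 10.0, 10.6 and 12.7 CPM at 0.25 µM, 5.79, 6.82 and 7.21 CPM at 0.5 µM and 5.43, 6.22 and 6.24 CPM at 1 µM. No treated library overlapped with an untreated one. For JAK2 the lowest dose gave a log2 fold change of -1.10 with an SE of 0.17 (adjusted p = 2.7e-05). The higher doses gave -1.51, -2.26 and, at 1 µM, -2.41 with an SE of 0.18 (adjusted p = 8.67e-10). At 0.15 µM 5.07% of all tested genes had a lower log2 fold change than JAK2, close to the 6.03% below STAT5A. At 1 µM 3.75% lay below JAK2 and 0.122% below STAT5A.

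JAK1 (ENSG00000162434.13, chromosome 1, 64833223 to 65067754, minus strand), which serves interferon, interleukin-6 and common gamma chain receptors, was not called in any of the 8 comparisons of the fit to all libraries. The libraries held 112, 138 and 138 CPM without martinostat, 111, 127 and 90.3 CPM at 0.15 µM and 90.3, 134 and 146 CPM at 0.25 µM. At 0.5 µM they held 149, 159 and 166 CPM and at 1 µM 147, 117 and 159 CPM. The 0.5 µM libraries lay above all untreated ones, and the other groups overlapped with them. The log2 fold change was -0.24, -0.06, 0.29 and 0.13 with increasing dose (SE 0.18 at each), with adjusted p between 0.161 and 0.772. At 0.5 µM JAK1 was called higher in 6 of 26 alternatives (0.24 to 0.71). These were library totals, TMM restricted to genes with 10 CPM or more, at least 10 counts in every library (0.58, adjusted p = 0.00872), both FPKM fits and the fit of only the libraries compared (0.35, adjusted p = 0.0306). At 1 µM it was called in 2 of 26, on library totals (0.49) and with the restricted TMM (0.51).

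TYK2 (ENSG00000105397.14, chromosome 19, 10350533 to 10380608, minus strand), the kinase of the interferon, interleukin-12 and interleukin-23 receptors, ended higher. Its untreated libraries held 140, 143 and 141 CPM and those at 0.15 µM 161, 169 and 207 CPM. The 0.25 µM libraries held 151, 148 and 123 CPM, on both sides of the untreated range. At 0.5 µM the libraries held 224, 249 and 223 CPM and at 1 µM 252, 208 and 245 CPM, all above the untreated ones. TYK2 rose by a log2 fold change of 0.71 at 0.5 µM (SE 0.14, adjusted p = 0.000181) and 0.73 at 1 µM (SE 0.14). At 1 µM 57.9% of all tested genes had a lower log2 fold change than TYK2. For STAT3 this share was 58.9% and for STAT2 73.8%. The TYK2 value at 0.15 µM was 0.34 (SE 0.14) with an adjusted p of 0.0492, near the median of all genes. That call was lost when any of 11 of the 15 libraries was left out, with log2 fold changes from 0.22 to 0.38. These were each untreated library, replicates 2 and 3 at 0.15 µM, replicates 1 and 2 at 0.25 µM, replicates 1 and 2 at 0.5 µM and replicates 1 and 3 at 1 µM. At 0.25 µM the value was -0.01 (SE 0.14) and turned to 0.51 on library totals.

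**Figure D2:**
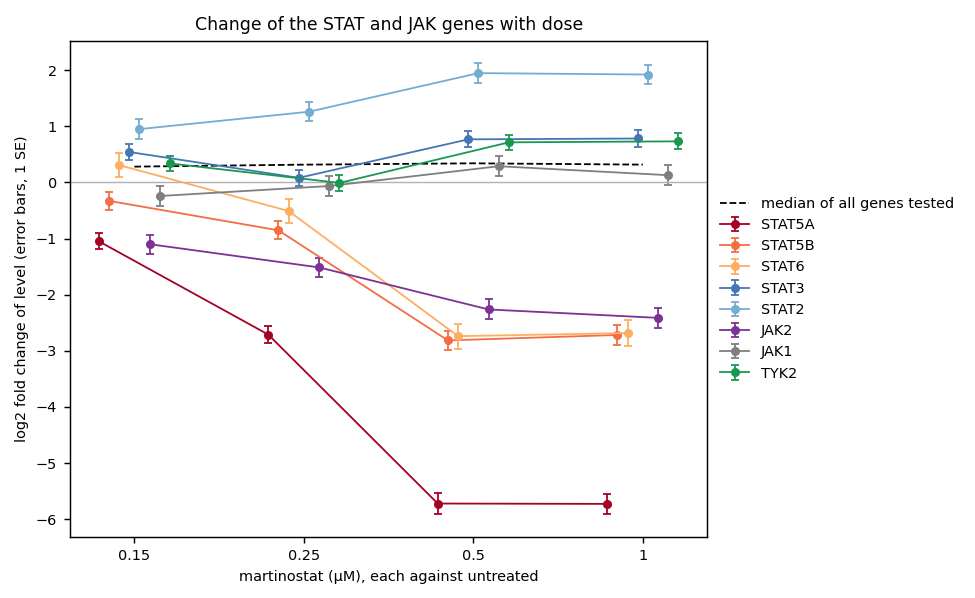
Log2 fold change of 8 members (vertical axis, error bars 1 SE of the fit) at each dose against untreated (horizontal axis, µM). The dashed line is the median of all tested genes. STAT5A reached -5.73, STAT5B, STAT6 and JAK2 lay between -2.72 and -2.41 at 1 µM, and STAT2 reached 1.92. STAT4, with 0 counts in untreated cells, is left out.

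Counted over the members, 2 of 9 were called lower at 0.15 µM, STAT5A and JAK2, where 19.4% of all tested genes were. STAT2, STAT3, STAT4 and TYK2 were called higher, 4 of 9 beside 31.9% of all genes. At 0.25 µM 4 were lower (STAT5A, STAT5B, STAT6 and JAK2, beside 24.8%) and 2 were higher (STAT2 and STAT4, beside 37.4%). At 0.5 µM the same 4 were lower, beside 27.6%, and STAT2, STAT3, STAT4 and TYK2 were higher, beside 39.4%. At 1 µM the calls were those of 0.5 µM, beside 27.5% lower and 38.8% higher among all genes. STAT4 entered the tests only through the groups where it was high. Without it, 3, 1, 3 and 3 of the other 8 members were called higher with increasing dose. The 4 doses were compared with the same untreated libraries, so these counts are not independent of each other. The median log2 fold change of the 9 members was 0.31, -0.06, 0.29 and 0.13 with increasing dose, and it was the same with STAT4 at its lower bound.

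Between successive martinostat doses the members moved mostly from 0.25 to 0.5 µM. For JAK2 (-1.10) and STAT2 (0.95) the step from untreated to 0.15 µM was larger than that one. From 0.15 to 0.25 µM 4 of 9 were called lower (7.32% of all genes) and 0 higher (4.96%). STAT5A made the largest of these steps, with a log2 fold change of -1.66 (SE 0.15, adjusted p = 4.32e-06), and STAT6 fell by 0.82 (SE 0.21). STAT3 (-0.46) and STAT5B (-0.53) were also called, with adjusted p of 0.0407 and 0.0398. The STAT3 call was lost when any of 10 libraries was left out (-0.51 to -0.26) and the STAT5B call when any of 8 was (-0.55 to -0.41), untreated libraries among them in both cases. The STAT6 call was lost without replicate 3 at 0.15 µM (-0.70) and without replicate 2 at 0.25 µM (-0.72). From 0.25 to 0.5 µM STAT5A (-3.01, SE 0.16), STAT6 (-2.23, SE 0.22), STAT5B (-1.96, SE 0.17) and JAK2 (-0.75, SE 0.17) fell, 4 of 9 beside 16.0% of all genes. TYK2 (0.72, SE 0.14), STAT2 (0.69, SE 0.17) and STAT3 (0.69, SE 0.14) rose, 3 of 9 beside 14.4%. In these groups the third replicates deviated together, but the labels do not pair the libraries. A fit of these groups alone with the replicate as a block, chosen after seeing the data, called JAK1 higher as well (0.37, SE 0.11, adjusted p = 0.0143). In the fit of all libraries the values were 0.35 and 0.15. JAK1 was not called with the block over all libraries or in the fit of only the libraries compared. It was called without replicate 3 at 0.25 µM (0.52). Without replicate 3 at 0.5 µM the step of STAT2 was 0.45 (SE 0.15, adjusted p = 0.0238) and that of STAT6 was -2.67 (SE 0.17). STAT2 lost its call on library totals (0.58), in both FPKM fits (0.44 and 0.50) and in the fit of only the libraries compared (0.68, adjusted p = 0.0516).

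From 0.5 to 1 µM 0 of 9 members were called, as were 0.0% of all genes in the lower and 0.0% in the higher direction. The log2 fold changes of the members ran from -0.50 for STAT4 to 0.10 for STAT5B. Without replicate 3 at 0.5 µM they ran from -0.12 for JAK1 to 0.50 for STAT6, with STAT2 at 0.21 and STAT4 at -0.05, and none was called. At an unadjusted p under 0.05, 372 of all genes differed in edgeR's quasi-likelihood test, and none of the 9 members did. DESeq2 called 0 genes (445 at an unadjusted p under 0.05), and limma on log2(FPKM + 1) called 1, which was not a member. From 0.15 to 1 µM STAT5A (-4.68), STAT6 (-2.99), STAT5B (-2.39) and JAK2 (-1.31) were lower, 4 of 9 beside 23.1% of all genes. STAT2 (0.97) and TYK2 (0.39) were higher, 2 of 9 beside 21.5%. The TYK2 call was lost without replicate 1 or 2 at 0.15 µM or without replicate 1 or 3 at 1 µM (0.32 to 0.36). STAT3 was not called (0.24) but was in 4 of 26 alternatives (0.34 to 0.44), among them DESeq2 (0.35) and the fit without replicate 3 at 0.15 µM (0.44). JAK1 was not called (0.37) but was in 7 of 26 (0.38 to 0.49), among them RLE scaling (0.48), DESeq2 (0.48), the fit of only the libraries compared (0.38) and the fit without replicate 3 at 0.25 µM (0.41).

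Within the STAT genes measured, the makeup turned over. STAT5A and STAT5B made up 76.2 ± 1.86% of the summed STAT level per kb of exon in untreated cells (SD, n = 3). With increasing dose this share was 55.7 ± 3.31%, 42.2 ± 3.41%, 10.2 ± 0.448% and 10.7 ± 0.520%. STAT3 went from 11.3 ± 1.09% to 56.3 ± 0.598% at 1 µM and STAT2 from 2.58 ± 0.478% to 28.3 ± 0.920%. The sum itself fell from 134 ± 7.29 to 46.2 ± 2.66 CPM per kb at 1 µM, so the shares of STAT3 and STAT2 grew more than their levels did. Of the 3 kinases, TYK2 went from 54.6 ± 1.45% of the summed level to 70.7 ± 1.40% at 1 µM and JAK2 from 13.2 ± 2.01% to 1.95 ± 0.329%. JAK1 took 32.2 ± 2.70% in untreated cells and 27.4 ± 1.5% at 1 µM. The deposited FPKM, which divide by the genomic span of a gene with its introns, placed STAT5A first in untreated cells as well, at 16.7 ± 0.735. On that scale the long genes JAK1 and JAK2 stood at 0.440 ± 0.0373 and 0.175 ± 0.0291.

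**Figure D3:**
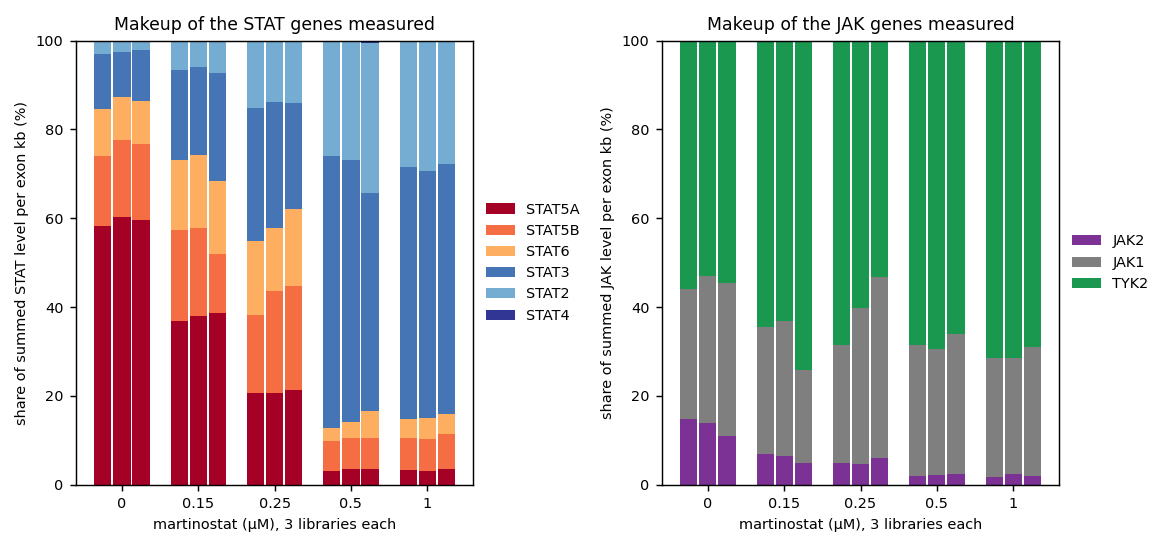
Share of each gene in the summed level per kb of exon of the 6 STAT genes (left) and of the 3 kinases (right), in percent, for each of the 15 libraries ordered by dose in µM. STAT5A and STAT5B fill 76.2% of the STAT level on average in untreated cells and 10.7% at 1 µM, where STAT3 and STAT2 fill most of it.

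STAT5B, STAT5A and STAT3 lie side by side on chromosome 17 and moved in different directions. STAT5A and STAT5B overlap at their starts and are transcribed away from each other, and the ends of STAT5A and STAT3 lie 1380 bases apart. At 1 µM the log2 fold change was -2.72 for STAT5B, -5.73 for STAT5A and 0.78 for STAT3. On the far side of STAT5B, GHDC was not called (-0.56, SE 0.32, adjusted p = 0.136). On the far side of STAT3, CAVIN1, a coat protein of caveolae, rose by 1.68 (SE 0.20). The letters before the starts of these genes are shown because these neighbouring genes differ in response. They are RefSeq promoters (GRCh38.p14), 250 bases before the annotated start, 5′ to 3′ on the strand of the gene, with each CG pair, the site of DNA methylation in vertebrates, in capitals. The STAT5B start used by RefSeq lies inside the GENCODE gene, away from the overlap with STAT5A. STAT5A is read at chr17:42287297-42287546 on the plus strand, STAT5B at chr17:42276392-42276641 on the minus strand and STAT3 at chr17:42388443-42388692 on the minus strand.
STAT5A: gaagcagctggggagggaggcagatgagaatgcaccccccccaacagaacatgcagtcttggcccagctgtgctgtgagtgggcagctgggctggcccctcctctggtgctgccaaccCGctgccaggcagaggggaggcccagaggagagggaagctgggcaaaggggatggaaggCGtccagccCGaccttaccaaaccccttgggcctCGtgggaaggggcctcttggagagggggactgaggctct
STAT5B: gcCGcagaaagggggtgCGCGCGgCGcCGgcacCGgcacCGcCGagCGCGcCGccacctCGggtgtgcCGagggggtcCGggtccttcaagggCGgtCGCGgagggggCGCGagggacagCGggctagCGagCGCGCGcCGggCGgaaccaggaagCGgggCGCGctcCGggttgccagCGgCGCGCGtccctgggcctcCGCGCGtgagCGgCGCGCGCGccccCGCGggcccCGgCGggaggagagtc
STAT3: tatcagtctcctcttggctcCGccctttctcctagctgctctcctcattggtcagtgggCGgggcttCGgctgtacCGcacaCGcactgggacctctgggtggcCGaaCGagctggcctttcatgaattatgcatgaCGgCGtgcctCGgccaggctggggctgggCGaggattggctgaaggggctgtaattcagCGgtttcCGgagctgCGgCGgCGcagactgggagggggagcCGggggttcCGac
The windows hold 4 CG pairs in STAT5A, 47 in STAT5B and 18 in STAT3, beside a median of 11 in all 35116 windows of the table. At most as many were held by 34.3%, 99.7% and 65.4% of all windows. For STAT5A the table has 3 starts, and their windows hold 1, 4 and 29 CG pairs. The gene counts do not show which start was in use.

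**Figure D4:**
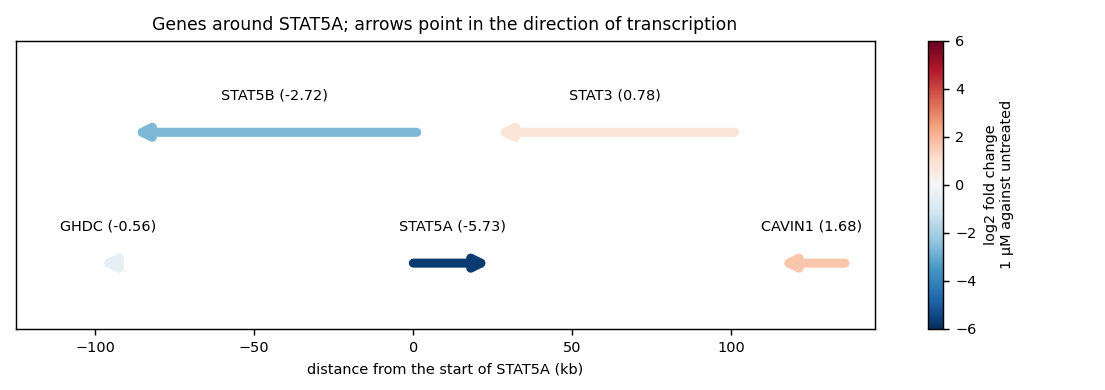
Map of GHDC, STAT5B, STAT5A, STAT3 and CAVIN1 by distance in kb from the start of STAT5A (horizontal axis). Arrows span each gene and point along transcription, rows only separate the genes, and colour and the number in brackets give the log2 fold change at 1 µM against untreated. STAT5A (-5.73) lies between STAT5B (-2.72) and STAT3 (0.78).

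The promoter table held 17 windows for the 9 members, since STAT4, STAT5A, JAK1 and JAK2 have several starts. The STAT binding motif TTCNNNGAA occurred in 0 of these windows on either strand, beside 6.57% of all windows. The GATA motif AGATAA occurred in 1, that of STAT6 (9.17% of all), and CCAAT in 3, those of STAT3, STAT6 and TYK2 (32.0%). GGGCGG, which SP factors bind, occurred in 7 (42.6%). All 4 were searched on both strands and none contains another. A match or its absence describes only the letters of these 250 bases.

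Next to the members other than STAT4 lay 12 tested protein-coding genes that are not members. At 1 µM 4 of them were lower, 5 were higher and 3 were not called, beside 27.5% lower and 38.8% higher among all tested genes. Of the 12 pairs of a member and such a neighbour, 4 were called in the same direction, 3 in opposite directions and 5 had at least 1 gene that was not called. STAT6 overlaps with LRP1, an endocytic receptor, which rose from 10.6 ± 1.54 to 455 ± 103 CPM (5.42, SE 0.24), and with NAB2, a co-repressor of EGR factors, which rose by 1.36 (SE 0.17). Of the exon bases of STAT6, 1.75% lie under a gene on the opposite strand. STAT2 lies beside IL23A and APOF, which rose from 0.439 and 0.0647 to 2.59 and 0.407 CPM. Both passed the filter on low counts through the treated groups, so their higher calls are no support for a difference. Both are among the 5 higher neighbours and the 4 pairs called in the same direction. JAK1 lies between RAVER2, which fell by 1.72 (SE 0.18), and AK4, which fell by 2.81 (SE 0.14). RCL1, 98.5 kb from JAK2, fell by 2.2 (SE 0.16), and PLGRKT on the other side was not called (0.08, SE 0.25). Beside TYK2, RAVER1 fell by 1.59 (SE 0.26), and CDC37, a chaperone of kinases, was not called (0.39, SE 0.18, adjusted p = 0.0551).

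The receptors that feed these kinases were mostly higher. Of 39 cytokine receptor genes 35 were tested, and 23 of them were higher and 5 lower at 0.15 µM, against 20 higher and 9 lower at 1 µM. Beside them stand the shares of all genes given above, 31.9% higher and 19.4% lower at 0.15 µM and 38.8% and 27.5% at 1 µM. The list median was 1.16 at 0.15 µM and 1.32 at 1 µM, the same with the 2 receptors that had 0 untreated counts at their lower bound. CRLF2 and IL22RA1, the receptors with 0 untreated counts, passed the filter only through the treated groups. IL21R, the receptor chain for interleukin-21, went from 0.0388 ± 0.0386 to 13.8 ± 1.25 CPM at 1 µM, with 23.3% of its exon bases under a gene on the opposite strand. IL2RB, a chain shared by interleukin-2 and interleukin-15, went from 0.798 ± 0.305 to 23.1 ± 6.32 CPM. IL15RA, their partner for interleukin-15, fell from 27.6 ± 0.491 to 2.06 ± 0.561 CPM (-3.74, SE 0.20, adjusted p = 1.23e-11). The other receptors lower at 0.15 µM were LEPR (-0.91), IL13RA1 (-0.65), IFNAR1 (-0.78) and IFNGR1 (-0.41). At 1 µM IFNGR1 was not called (0.12).

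Of 32 ligand genes 13 were tested. At 0.15 µM 9 were higher and 0 lower, and at 1 µM 8 were higher and 0 lower, with list medians of 2.29 and 2.63. IL11, LIF, IL13, EPO, THPO, TSLP and CSF3 stood at 0.342 CPM or below in untreated cells. Like IL23A, they passed the filter on low counts through the treated groups. Their higher calls, and medians that include them, are therefore no support for a difference. With at least 10 counts in every library, 2 ligands were higher at 0.15 µM and 1 at 1 µM. The background over all genes was 31.9% higher with 19.4% lower at 0.15 µM, and 38.8% with 27.5% at 1 µM. The other 19 did not pass the filter on low counts. At 1 µM the highest mean among the tested ligands was 9.82 ± 1.06 CPM for IL15, which stood at 0.552 ± 0.108 CPM in untreated cells (4.14, SE 0.32).

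Of 20 inhibitors of the pathway, all tested, 7 were lower and 4 higher at 0.15 µM and 7 were lower and 7 higher at 1 µM, with list medians of -0.12 and -0.17. Of all genes tested, 19.4% were lower and 31.9% higher at 0.15 µM and 27.5% and 38.8% at 1 µM. SOCS3, which blocks JAK1, JAK2 and TYK2, rose from 28.1 ± 1.67 to 60.6 CPM at 0.15 µM and 261 ± 40.2 CPM at 1 µM (3.22, SE 0.18, adjusted p = 1.82e-11). SOCS1, which binds the same kinases, rose from 29.5 ± 0.864 to 75.6 ± 11.3 CPM at 1 µM (1.36, SE 0.15). SOCS6 fell from 31.9 ± 0.245 to 7.65 ± 2.56 CPM (-2.06, SE 0.24). At 0.15 µM the other genes called higher were PTPN6 (1.07) and CBLB (0.49). The number of inhibitors lower at 0.15 µM fell from 7 to 3 on library totals.

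Of 13 partners, all tested, 7 were lower and 1 higher at 0.15 µM and 4 lower and 1 higher at 1 µM, with list medians of -0.50 and -0.22. The shares of all genes were 19.4% lower and 31.9% higher at 0.15 µM and 27.5% and 38.8% at 1 µM. NMI, which binds several STATs, fell from 53.0 ± 5.00 to 4.29 ± 0.758 CPM (-3.63, SE 0.18, adjusted p = 3.28e-12). HSP90AB1, a chaperone of client kinases such as JAK2, fell from 6250 ± 497 to 2670 ± 288 CPM (-1.23, SE 0.18). CREBBP, an acetyltransferase that STATs recruit, and NCOR1, a scaffold of HDAC complexes, were the other genes lower at 1 µM (-0.60, SE 0.16, and -0.73, SE 0.14). SH2B2, an adaptor of JAK2, was higher and rose from 0.639 ± 0.337 to 19.7 ± 3.72 CPM (4.95, SE 0.43). The count of 1 higher partner at 1 µM was 4 on library totals.

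Of 10 genes known as STAT5 targets in blood cells 9 were tested, and the inhibitors SOCS2, SOCS3 and CISH are among them as well. At 0.15 µM 6 were higher and 0 lower (median 0.95), and at 1 µM 4 were higher and 3 lower (median -0.09), beside 31.9% higher and 19.4% lower of all genes at 0.15 µM and 38.8% and 27.5% at 1 µM. PIM1, a survival kinase, had a log2 fold change of 1.11 at 0.15 µM and -1.02 (SE 0.17) at 1 µM. BCL2L1, the gene of the anti-apoptotic BCL-XL, gave 0.95 and -1.86 (SE 0.15), with 41.3% of its exon bases under a gene on the opposite strand. CCND2, a cyclin of the G1 phase, gave 0.81 and -1.0 (SE 0.25). The 4 targets higher at 1 µM were ID1 (3.23, SE 0.19), SOCS3 (3.22), BCL6 (2.97, SE 0.55) and SOCS2 (0.62, SE 0.21). The list was not split by whether STAT5 raises or lowers a target, so its counts and median do not measure STAT5 activity. CISH, a feedback inhibitor that STAT5 induces, was not called at either dose (-0.02 and -0.35), nor was PIM2 (-0.11 and -0.09).

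**Figure D5:**
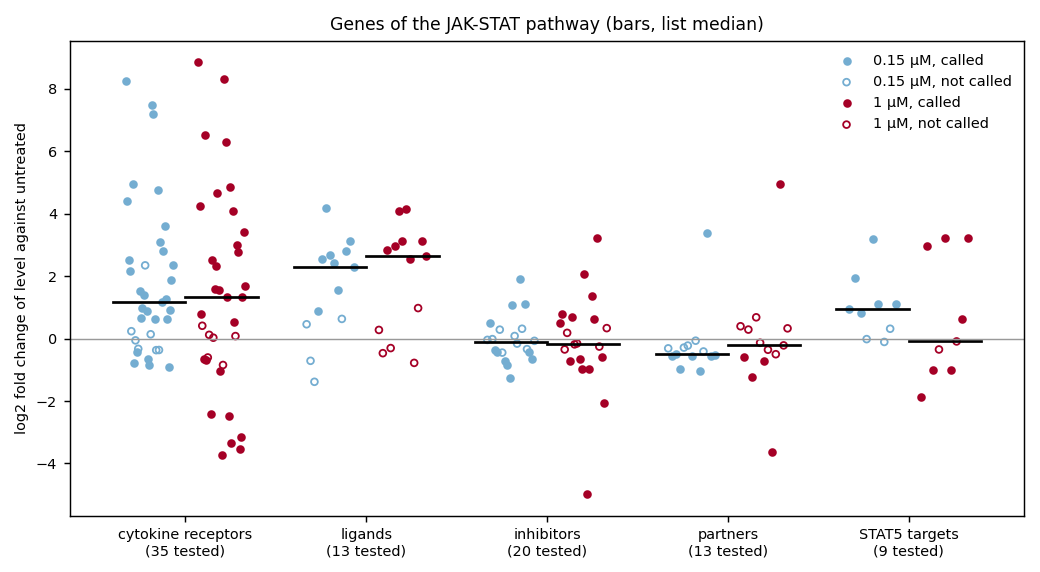
Log2 fold change against untreated (vertical axis) of the tested genes of 5 lists, at 0.15 µM (blue) and 1 µM (red). Each point is a gene, filled where it was called, and bars are list medians. Receptors lie mostly above 0 at both doses, while the median of the STAT5 targets goes from 0.95 to -0.09.

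Across the 15 libraries, the genes whose log2(CPM + 1) followed STAT5A most closely were SEPTIN8 (Pearson's r 0.997), HEMGN, PHF2 and IGF2BP1, among 10120 non-member genes of at least 10 CPM. HEMGN, a gene of blood progenitors, went from 279 ± 35.4 to 1.08 ± 0.284 CPM at 1 µM, and IGF2BP1, an RNA-binding protein, from 708 ± 32.6 to 26.8 ± 4.50 CPM. For JAK2 they were XPOT (r 0.991), TIAL1, BOD1 and ZFP91, and XPOT, the exporter of transfer RNAs, went from 341 ± 14.6 to 72.7 ± 3.53 CPM. These correlations describe 15 libraries that form 5 dose groups and share their scaling, and they carry no p-value.

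Markers of cell identity moved along with the members. The summed level of 10 erythroid markers ran from 3760 to 4100 CPM in the untreated libraries, 1790 to 1920 at 0.15 µM, 1090 to 1380 at 0.25 µM, 628 to 957 at 0.5 µM and 850 to 982 at 1 µM. At 1 µM 8 of these 10 were lower and 1, HBE1, was higher. HBE1, at 0.170 CPM in untreated cells, passed the filter on low counts through the treated groups. KLF1, an erythroid transcription factor, went from 406 ± 31.2 to 3.58 ± 0.449 CPM. Of 10 markers of other lineages 9 were tested, and at 1 µM 4 were higher and 3 lower. Among the higher ones, CD14 and PECAM1 stood at 0.203 and 0.0794 CPM in untreated cells and passed the filter through the treated groups. Their summed level ran from 162 to 174 CPM in untreated cells and from 324 to 511 CPM at 1 µM, mostly COL1A1, which went from 4.36 ± 0.954 to 398 ± 94.4 CPM, while EPCAM fell from 141 ± 9.54 to 20.5 ± 1.87 CPM. MS4A1 had 0 counts in the untreated, 0.15 µM and 0.25 µM groups. The part of these changes in the levels of the STAT and JAK genes was not tested.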

How the data were processed

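Poly(A) RNA of 15 K562 libraries was sequenced as paired ends after a directional library preparation. The authors trimmed reads with Trim Galore 0.6.10 and Trimmomatic, aligned them to hg38 with HISAT2 2.2.1 and counted fragments per GENCODE gene with featureCounts 1.5.3, per the labels and the methods of the study. The strand setting is not given in the sources used here. The deposited count table holds raw counts, not normalised. The deposited FPKM, computed by the authors, divide by library total and gene length. In 92.8% of 48212 genes with a position that length was the genomic span (within 1 base), so FPKM served only as an alternative on the log2 scale.

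Groups were taken from the labels. The tests used edgeR 4.0.16 under R 4.3.3, with filterByExpr, TMM factors (0.784 to 1.28), 1 fit of all 15 libraries with the group as the only term, and robust quasi-likelihood tests. Genes with an adjusted p (Benjamini-Hochberg, over 23711 genes) under 0.05 were called. An SE is the log2 fold change divided by the square root of the F statistic. The test was checked on simulated data in which few genes changed, as many up as down. That check does not cover the excess of higher calls in these data or the choice of scaling. Within groups the Pearson correlation of log2 CPM across genes ran from 0.957 to 0.987, and every pair differed by more than counting noise (chi-square over its degrees of freedom at least 6.15).

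Symbols were found for 60463 of 60605 gene identifiers. Positions and exon lengths came from a later GENCODE release than the one counted, on GRCh38, the build of hg38, and promoters from RefSeq (GRCh38.p14). Named genes were the 9 members, up to 3 genes per list of at least 10 CPM called the same way at all doses with the largest change at 1 µM, the genes in counts of 5 or fewer, tested neighbours, the 4 genes most correlated with STAT5A and with JAK2, and cell markers. IL15, CISH, PIM2, CRLF2 and IL22RA1 were named after their values were seen. The same holds for ligands and receptors named only for a low untreated level or only as lower at 1 µM. The members and lists were chosen with earlier results of these data known. The neighbours of STAT4 are not reported here, and further family members were not analysed here.

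Equal replicate numbers were checked as the correlation of deviations from group means. The 0.25 and 0.5 µM groups gave 0.266, 0.268 and 0.579, and elsewhere it was 0.0918 or lower. Replicate 2 at 0.25 µM gave 0.236 with replicate 1 at 0.5 µM, so only the third replicates stood out as a pair. An added fit treated the libraries of these groups as paired, which the labels do not state. Alternatives were other scalings, filters, DESeq2 1.42.0, the RLE scaling of DESeq2, limma 3.58.1 on log2(FPKM + 1) and log2(FPKM + 0.1), a replicate block, fits of only the libraries compared and fits without 1 library. The depth, 23755510 to 32805574 counts per library, gives STAT4 too few counts to compare doses.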

Additional observations from a re-analysis of the deposited data

How the results depend on the processing

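Of 1871 log2 fold changes of the 9 members recomputed under 27 alternative fits, 1749 kept their direction and their side of the threshold, 83 lost a call, 32 gained one and 7 reversed. At 0.5 and 1 µM against untreated, the calls of STAT2, STAT3, STAT5A, STAT5B, STAT6, JAK2 and TYK2 held in all 26 alternatives run for each. The reversed values were at 0.25 µM against untreated. STAT6 gave 0.0295 on library totals, 0.0073 on log2(FPKM + 1) and 0.0037 on log2(FPKM + 0.1). TYK2 gave 0.51 on library totals, 0.41 on log2(FPKM + 1), 0.50 on log2(FPKM + 0.1) and 0.41 with TMM restricted to genes with 10 CPM or more. STAT4 lost its calls at 0.15 and 1 µM in both FPKM fits.

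Counts of called members moved by more than 1.5 times in 4 cases, given next. Over all alternatives the count also ran from 2 to 3 lower and 3 to 5 higher at 0.15 µM, 4 to 5 higher at 0.5 µM, 3 to 5 higher at 1 µM, and 2 to 4 higher from 0.25 to 0.5 µM, and the count of lower members at 0.5 and 1 µM was 4 in each. At 0.25 µM against untreated, 2 were lower on library totals and in both FPKM fits, and 4 were higher in these fits and with TMM restricted to genes with 10 CPM or more. From 0.15 to 0.25 µM, 2 were lower under RLE scaling, with at least 10 counts in every library, on log2(FPKM + 1) and in a fit of only the libraries compared, and 1 was lower on library totals, with TMM restricted to genes with 10 CPM or more and on log2(FPKM + 0.1). Leaving out 1 library gave 1 to 4. From 0.15 to 1 µM, 4 were higher with TMM restricted to genes with 10 CPM or more, with at least 10 counts in every library and in DESeq2, 1 was higher with no filter, and leaving out 1 library gave 1 to 3.

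In the lists, 3 receptors were lower at 0.15 µM on library totals and in both FPKM fits. Of the inhibitors, 3 were lower at 0.15 µM in these fits, with TMM restricted to genes with 10 CPM or more and with at least 10 counts in every library, leaving out 1 library gave 3 to 8, and 4 were lower at 1 µM with TMM restricted to genes with 10 CPM or more. Of the partners, 2 were lower at 0.15 µM on library totals, with TMM restricted to genes with 10 CPM or more and in both FPKM fits. At 1 µM, 3 partners were higher under RLE scaling, 2 with no filter and 4 on library totals, with TMM restricted to genes with 10 CPM or more, with at least 10 counts in every library, in DESeq2, in both FPKM fits, in a fit of only the libraries compared and, chosen after seeing the data, without the third replicates at 0.25 and 0.5 µM, and leaving out 1 library gave 1 to 4. Of the ligands, 1 was lower at 0.15 µM in DESeq2 and in a fit of only the libraries compared, leaving out 1 library gave 0 to 1, and with at least 10 counts in every library 2 were higher at 0.15 µM and 1 at 1 µM. The cause of these changes was not tested.

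With the replicate number as a block over all libraries, the members higher at 0.15 µM were 3, since TYK2 (0.34) lost its call, and those lower from 0.15 to 0.25 µM were 3, since STAT3 (-0.46) lost its call. The block over the 0.25 and 0.5 µM libraries alone, chosen after seeing the data, gave 4 lower and 4 higher members. Without the third replicates at 0.25 and 0.5 µM, STAT2 was at 1.75, STAT6 at -3.15 and STAT5A at -5.81 at 0.5 µM against untreated.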
